A study of Xenopus tropicalis with 39 samples.

Results

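Vegetal masses of Xenopus tropicalis embryos injected with morpholinos against both Vegt and Otx1 (Double MO, n = 2) were compared with masses of embryos injected with the Vegt morpholino alone (Vegt MO, n = 2). The comparison asks what the loss of Otx1 changes in prospective endoderm that has already lost Vegt. Its 4 RNA libraries were chosen by their labels out of 39 samples in the series. Masses with the Otx1 morpholino alone (Otx1 MO, n = 2) and uninjected masses (n = 2) completed the experiment and are used for context, as are 16 animal cap libraries and 9 libraries of 8-cell embryos. Morpholinos were injected at the 1-cell stage, masses were dissected at stage 9, 6 hours after fertilization, and RNA was harvested at the equivalent of stage 10.5, 7 hours after fertilization. The titles of the mass libraries name a slightly earlier stage, and the stage of harvest is used here. The sources used here give neither strain nor morpholino amounts, and no library with a control morpholino was used, so Vegt MO and Double MO masses may have carried unequal total amounts of morpholino.

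Morpholinos are synthetic antisense molecules that bind an RNA and stop its translation or its splicing. Vegt is a T-box transcription factor whose maternal RNA is localized to the vegetal pole of the frog egg, and it is known as an activator of the endoderm programme and of Nodal ligand genes. Otx1 is a homeodomain factor of the Otx family, whose members are better known for their part in anterior head development. At the midblastula transition the embryo begins to transcribe its own genome and clears much of its maternal RNA, so that an explant at stage 10.5 holds a mixture of maternal and zygotic transcripts.

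Levels are given in TPM, a length-scaled relative abundance that the authors deposited, and tests were run on the deposited expected counts. Expected counts summed to between 10906279 and 16379814 per mass library, and between 31.5% and 35.4% of features were at 0 in each. The table held 32234 features, made up of 26550 gene models and 5684 models of long non-coding RNAs (lncRNAs). No gene symbols accompany the identifiers, and 0 of them matched the reference table of 28858 genes. Endoderm, mesoderm and ectoderm markers could therefore not be read, and at most 2 identifiers per direction are printed. As bulk tissue was sequenced, fewer cells of a type and less RNA per cell cannot be told apart.

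Without symbols the RNAs of vegt and otx1 themselves could not be looked up. In the caps 91 features increased at every step of the injected otx1 RNA in both replicates, 10 of them with a log2 fold change of at least 4 at 100 ng. The most abundant of the 10 had 2467 and 3683 TPM at 100 ng, against 42.7 and 48.7 TPM at 0 ng. In the masses it had 579 and 449 TPM in Double MO, against 489 and 198 TPM in Vegt MO. The log2 fold change of 0.65 did not pass the test (edgeR adjusted p = 0.44). The most abundant of 52 features chosen in the same way along the vegt RNA series had 3470 and 4889 TPM in Double MO, against 4174 and 3866 TPM in Vegt MO (log2 fold change -0.01, adjusted p = 0.99). Neither feature is identified as the injected gene, and a morpholino need not change the amount of its target RNA, so these levels check neither knockdown.

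With the replicate number as a block, 332 of 16269 tested features were lower in Double MO than in Vegt MO (2.04%) and 336 were higher (2.07%), together 4.11%, at an adjusted p under 0.05 in edgeR's quasi-likelihood test. The features that fell spanned log2 fold changes from -9.20 to -0.51 around a median of -1.13, and 197 of them changed by at least 2-fold and 64 by at least 4-fold. Those that rose spanned 0.59 to 7.74 around a median of 1.05, and 184 changed by at least 2-fold and 24 by at least 4-fold. Across all tested features the median was -0.002, and 10.3% differed by at least 2-fold. In 6 of the features that fell and 2 that rose, one of the groups had 0 counts in both libraries. With those at the bound that 3 counts over the group allow, the medians were the same -1.13 and 1.05.

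**Figure D1:**
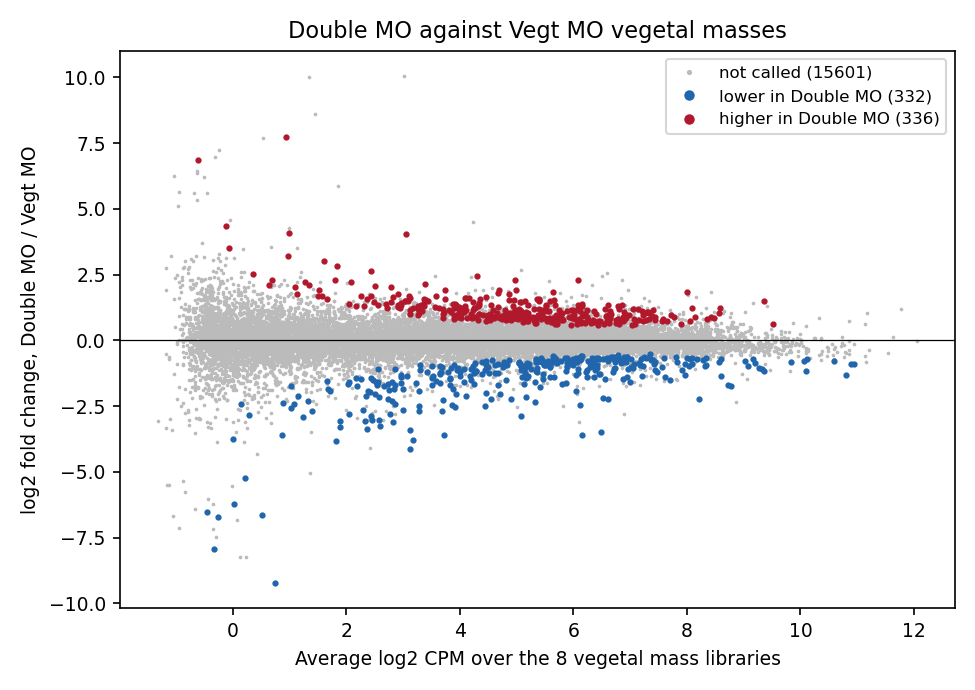
The plot of log2 fold change (Double MO over Vegt MO) against average log2 CPM (edgeR's depth-scaled count) over the 8 mass libraries shows 1 point per tested feature. The 332 features called lower (blue) and 336 called higher (red) lie on both sides of 0 at all levels, and the greatest fold changes are those of features with few counts.

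The calls rested on the replicate block. Without it edgeR called 0 features, with 988 at an unadjusted p under 0.05 and a smallest adjusted p of 0.11; 403 of the 668 called features were among those at an unadjusted p under 0.05. The fold changes of the 668 moved by a median of 0.016 on the log2 scale. The features were called on these same libraries with the block, so their agreement within replicates is largely set by that choice. It describes the called features and is no independent support. Within replicate 1 the features that fell had a median log2 ratio of -1.13 and within replicate 2 of -1.11, and those that rose had medians of 1.05 and 1.08. Of the 332 that fell 331 had the same direction within both replicates, as did all 336 that rose and 67.7% of all tested features. The remaining feature had a log2 ratio of 0 within replicate 1. Libraries with 0 counts on both sides also give this ratio, so it need not be a measured lack of difference. Both Double MO values lay below both Vegt MO values for 310 of the 332 features that fell, against 14.7% of all tested features in that direction. Both Double MO values lay above both Vegt MO values for 234 of the 336 that rose, against 19.1%. In the other 102 that rose, and the other 22 that fell, values of the groups overlapped. The separation of values was counted in the libraries that gave the calls, so it too is favoured by the choice.

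The count also rested on every library. Leaving out replicate 1 or 2 of Double MO gave 52 or 81 features lower and 30 or 37 higher, and leaving out replicate 1 or 2 of Vegt MO gave 36 or 52 lower and 2 or 9 higher. Of the features called with all libraries, 24 that fell and 1 that rose were also called in all 4 of these fits. DESeq2 called 644 lower and 722 higher, including 319 of the 332 and 330 of the 336. On log2(TPM + 1) limma called 99 lower and 35 higher, and 65 of the features that fell and 19 of those that rose were called by edgeR, DESeq2 and limma with both pseudocounts.

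**Figure D2:**
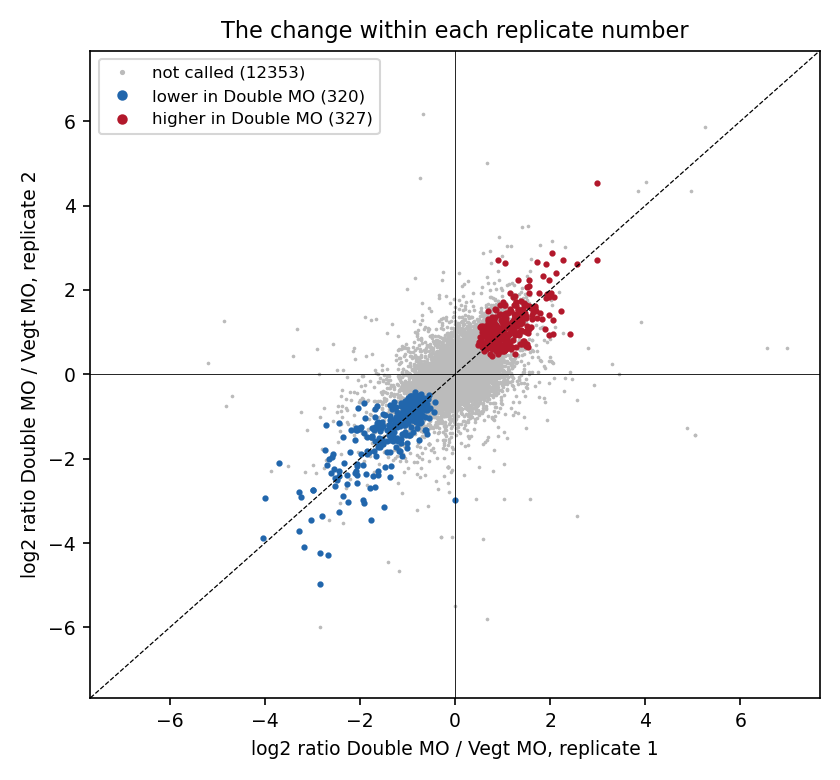
The plot sets the log2 ratio of Double MO over Vegt MO within replicate 2 against that within replicate 1, for features with an average log2 CPM of at least 1; the dashed line marks equal ratios. Called features lie in the lower left (blue) and upper right (red) quadrants, except 1 blue point at 0 in replicate 1. Their choice in these libraries with the block favours this. Over all 13000 plotted features Pearson's r was 0.59.

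The gene models named here are the 2 per direction with the greatest fold change among called models with an average log2 CPM of at least 1 and separate replicate values, out of 290 that fell and 211 that rose. Xetrov90012565m.g had 1.26 and 0.75 TPM in Double MO, against 21.4 and 11.6 TPM in Vegt MO. In the other masses it was low too, with 2.27 and 0.67 TPM in Otx1 MO, against 2.92 and 0.53 TPM in uninjected masses. Vegt MO alone thus held this RNA at a high level, with no overlap with the other groups. The log2 fold change between Double MO and Vegt MO was -4.15 (SE 0.40, edgeR adjusted p = 0.0027, and 0.54 without the block). Between Vegt MO and uninjected masses it was 3.44 (SE 0.37, adjusted p = 0.0021). Between Double MO and uninjected masses it was -0.71 (adjusted p = 0.35), so that difference did not pass the test.

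Uninjected animal caps held Xetrov90012565m.g at 21.4 and 22.8 TPM. This was the level of replicate 1 of the Vegt MO masses (21.4 TPM) and above that of replicate 2 (11.6 TPM), although caps and masses were normalized separately. With 500 ng of vegt RNA the caps had 5.96 and 7.31 TPM (log2 fold change -1.69, edgeR adjusted p = 0.00045). Caps with 100 ng of otx1 RNA beside 100 ng of vegt RNA had 8.73 and 12.5 TPM, against 19.5 and 19.6 TPM with vegt RNA alone (adjusted p = 0.12). The amounts are in the unit the labels give.

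Xetrov90024523m.g had 0.54 and 0.84 TPM in Double MO, against 6.90 and 11.7 TPM in Vegt MO. It had 0.67 and 0.51 TPM in Otx1 MO, against 4.50 and 4.96 TPM in uninjected masses. This RNA was thus low in both groups that received the Otx1 morpholino and higher in both that did not. The log2 fold change was -3.83 between Double MO and Vegt MO (SE 0.41, edgeR adjusted p = 0.0035, and 0.28 without the block). It was -3.05 between Otx1 MO and uninjected masses (SE 0.43, adjusted p = 0.013). In caps the replicates disagreed, with 1.03 and 13.3 TPM in uninjected caps.

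Xetrov90026651m.g had 44.6 and 84.2 TPM in Double MO, against 4.79 and 2.95 TPM in Vegt MO. It had 88.6 and 40.9 TPM in Otx1 MO, against 1.89 and 0.94 TPM in uninjected masses. Here the groups with the Otx1 morpholino were the high ones, by more than the spread between replicates. The log2 fold change was 4.05 between Double MO and Vegt MO (SE 0.58, edgeR adjusted p = 0.019, and 0.30 without the block; 0.17 or 0.23 without replicate 1 or 2 of Vegt MO). It was 5.36 between Otx1 MO and uninjected masses (SE 0.68, adjusted p = 0.023). Uninjected caps had 1.68 and 10.3 TPM of this RNA. Caps with 100 ng of vegt RNA had 32.7 and 27.5 TPM without otx1 RNA, 3.44 and 6.57 TPM with 25 ng of it, 8.54 and 13.9 TPM with 50 ng and 37.1 and 54.8 TPM with 100 ng. None of the 3 amounts passed the test (edgeR adjusted p = 0.50, 0.75 and 0.83), and the levels followed no single direction with the amount.

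Xetrov90007942m.g had 2.57 and 12.7 TPM in Double MO, against 0.11 and 1.59 TPM in Vegt MO. It had 2.88 and 10.1 TPM in Otx1 MO, against 1.25 and 2.21 TPM in uninjected masses, a difference that did not pass the test (log2 fold change 1.64, SE 0.48, edgeR adjusted p = 0.11). Replicate 2 was higher than replicate 1 in each of the 4 groups, and within each number Double MO was above Vegt MO. The log2 ratios were 2.98 and 2.71, taken on log2 CPM with a small count added to each library. Replicate 1 of Vegt MO held only 0.99 expected counts, so the first ratio depends on the added count. The log2 fold change was 3.00 between Double MO and Vegt MO (SE 0.51, edgeR adjusted p = 0.018). Without the block the adjusted p was 0.85. In limma on log2(TPM + 1) it was 0.066, and leaving out any 1 of the 4 libraries gave between 0.061 and 0.17.

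**Figure D3:**
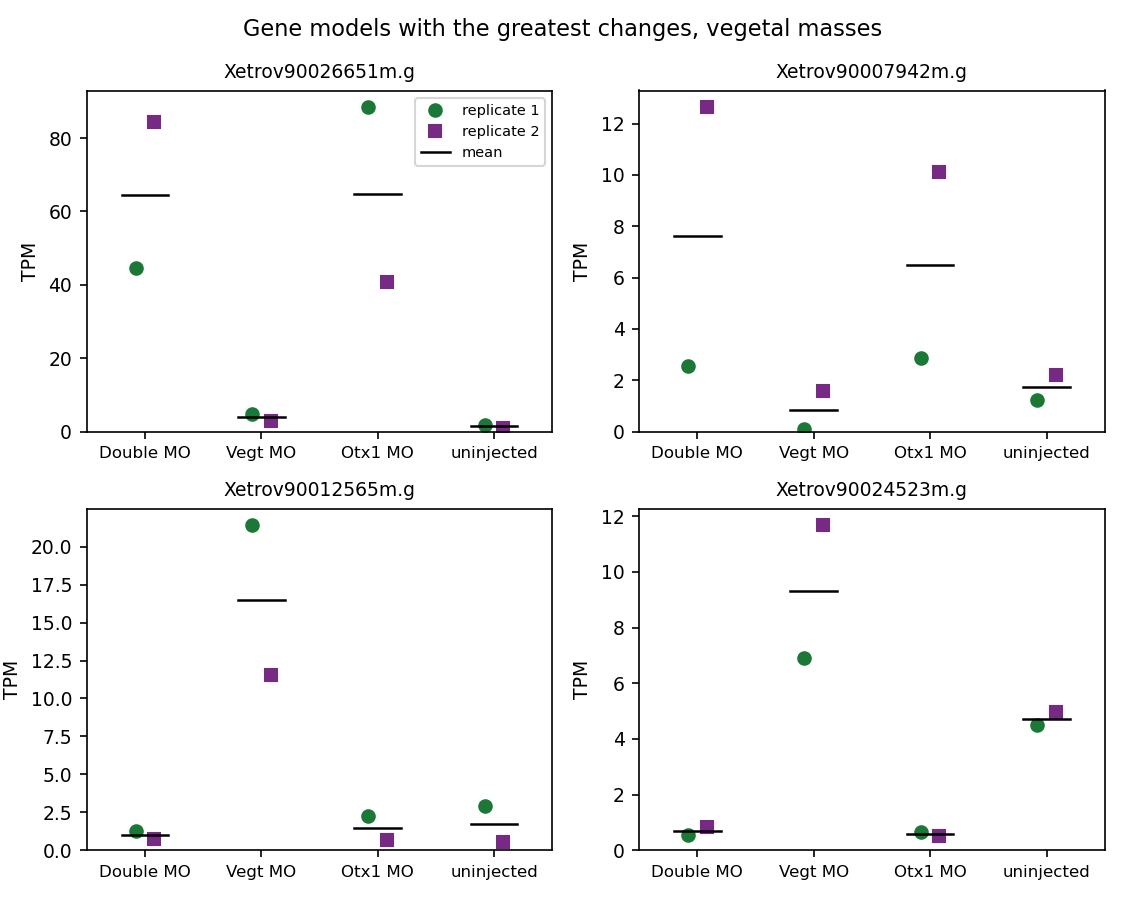
TPM of the 4 named gene models is plotted by group of vegetal masses, with a circle for replicate 1, a square for replicate 2 and a line for their mean. Xetrov90012565m.g is high in Vegt MO alone, Xetrov90024523m.g is low in both groups with the Otx1 morpholino, and Xetrov90026651m.g is high in both; the replicates of Xetrov90007942m.g spread widely in both.

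The features that fell had a higher median level than those that rose and than all tested features. Their median level over the 8 mass libraries was 52.4 TPM, against 26.8 TPM for those that rose and 18.5 TPM for all tested features. Of the 2432 tested features at 100 TPM or more, 99 fell (4.07%) and 35 rose (1.44%). Of the 7425 features from 10 to 100 TPM, 169 fell (2.28%) and 236 rose (3.18%). At lower levels fewer were called in either direction, with 7 and 5 of the 1495 features under 1 TPM. How far the levels of the called features reflect easier calling at higher counts was not tested. Of the 2323 tested lncRNA models 10 fell (0.43%) and 24 rose (1.03%), against 322 and 312 of the 13946 gene models (2.31% and 2.24%). The lncRNA models were also less abundant, with a median of 2.16 TPM against 25.0 TPM, and the classes were not matched for level.

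Summed over the 332 features that fell, the level was 30286 and 41234 TPM in Double MO, against 59093 and 71720 TPM in Vegt MO. In Otx1 MO the same features summed to 34269 and 39521 TPM, against 43755 and 63895 TPM in uninjected masses. The 336 features that rose summed to 25105 and 16678 TPM in Double MO, against 12166 and 7639 TPM in Vegt MO. They summed to 24292 and 18902 TPM in Otx1 MO, against 17633 and 8882 TPM in uninjected masses. Within each replicate number both groups with the Otx1 morpholino summed lower for the features that fell than both groups without it. For those that rose they summed higher. Across numbers the latter sums overlapped, with 17633 TPM in uninjected replicate 1 against 16678 TPM in Double MO replicate 2. The features were chosen by Double MO against Vegt MO, so that part of the pattern is set by the choice. Replicate 2 of every group was the higher for the features that fell and the lower for those that rose.

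The most abundant feature of each direction was chosen after its values were seen, and both changed modestly. That which fell had 1433 and 2415 TPM in Double MO, against 2808 and 3861 TPM in Vegt MO (log2 fold change -0.91, SE 0.21, edgeR adjusted p = 0.045). That which rose had 2117 and 1966 TPM in Double MO, against 1301 and 1196 TPM in Vegt MO (log2 fold change 0.63, SE 0.14, edgeR adjusted p = 0.043).

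The features that fell and those that rose differed in their level in early embryos relative to caps. In whole 8-cell embryos their median levels were 8.67 and 38.9 TPM, against 10.5 TPM for all tested features. In uninjected caps the medians were 42.6 and 20.3 TPM, against 12.8 TPM. The features that fell were thus near the level of all tested features at the 8-cell stage and above it in caps. Each feature was placed by its mean level in whole 8-cell embryos, which hold maternal RNA, relative to uninjected caps at stage 10.5, on the log2(TPM + 1) scale; neither enters the comparison of masses, and the tables were normalized separately. Of the 332 features that fell, 197 (59.3%) were at least 2-fold lower at the 8-cell stage than in the caps, as were 24.6% of all tested features. Of the 336 that rose, 36 (10.7%) were in that class. Conversely 146 of those that rose (43.5%) were at least 2-fold higher at the 8-cell stage than in the caps, against 26 of those that fell (7.83%) and 18.3% of all tested features. The median log2 difference between 8-cell embryos and caps was -1.53 for features that fell, 0.78 for those that rose and -0.16 over all. Most features that fell were thus RNAs scarcer in 8-cell embryos than in stage 10.5 caps, while those that rose held a greater share of RNAs more abundant in 8-cell embryos.

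The medians of whole classes moved in the same directions. The 2983 tested features with the higher 8-cell level had a median log2 fold change of 0.10 between Double MO and Vegt MO, with 0.09 within each replicate. The 4003 features with the lower 8-cell level had a median of -0.10, with -0.10 and -0.13 within replicates 1 and 2. Between Otx1 MO and uninjected masses these medians were 0.10 and -0.10, and between Vegt MO and uninjected masses -0.02 and 0.01. The part that this class-wide shift has in the calls was not tested. By position in the 8-cell embryo, 14 of the features that fell (4.22%) and 11 of those that rose (3.27%) were at least 2-fold higher in vegetal than in animal blastomeres, against 4.00% of all tested features.

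**Figure D4:**
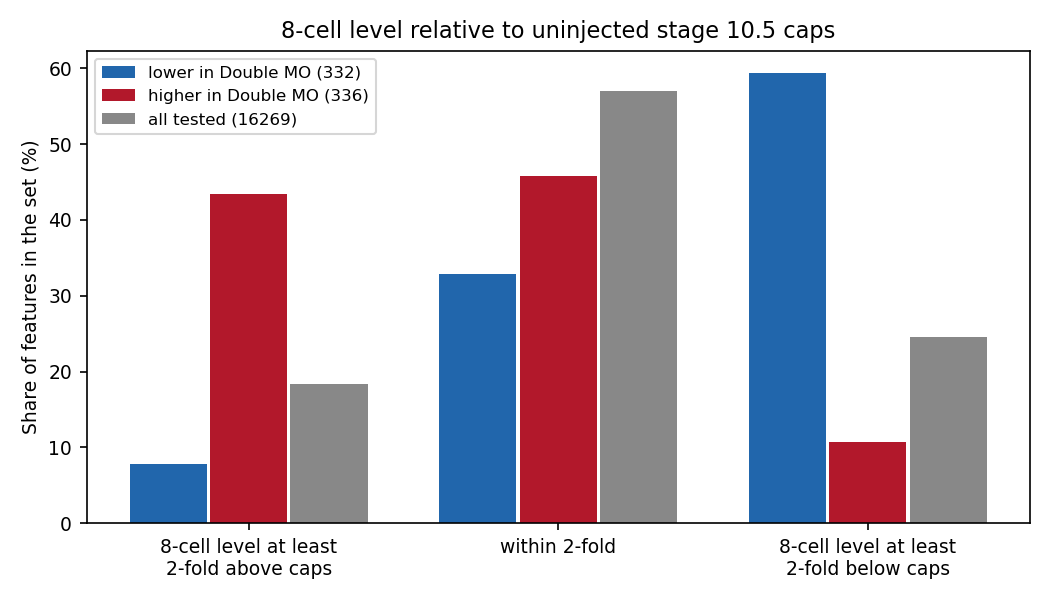
Bars give the share, in percent, of the 332 features lower in Double MO, the 336 higher and all 16269 tested features in 3 classes of 8-cell level relative to uninjected caps. The features that fell are concentrated in the class with the lower 8-cell level (59.3%) and those that rose reach 43.5% in the class with the higher one.

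The Otx1 morpholino was also given to masses with Vegt intact, in other libraries than those of Double MO and Vegt MO. All 8 libraries were fitted in 1 model, which shares its replicate block and its estimate of the spread, so the calls of the 2 comparisons are not from independent tests. Here 154 features were lower in Otx1 MO than in uninjected masses (0.947%) and 118 were higher (0.725%), together 1.67%, by the same test with the block. Of the 154, 98 were also lower in Double MO than in Vegt MO (63.6% of the 154 and 29.5% of the 332), where 2.04% of all tested features were. Of the 154, 153 had a negative fold change there, against 50.2% of all tested features, and their median was -1.14, beside -1.28 in their own comparison. Of the 118, 66 were also higher in Double MO (55.9% of the 118 and 19.6% of the 336), where 2.07% of all tested features were. Of the 118, 114 had a positive fold change there, against 49.8% of all tested features, and their median was 0.87, beside 1.12 in their own comparison. None (0) was called in opposite directions.

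Read the other way, the 332 features that fell in Double MO had a median of -0.75 (log2) between Otx1 MO and uninjected masses, where 321 of them were negative (96.7%, against 51.7% of all tested features). The 336 that rose had a median of 0.74, and 322 were positive (95.8%, against 48.3%). Over the 13000 features with an average log2 CPM of at least 1, the fold changes of the 2 comparisons had a Pearson's r of 0.68 and a Spearman's rho of 0.65; features of the same libraries are not independent replicates. Across replicate numbers, r was 0.56 between Double MO over Vegt MO in replicate 1 and Otx1 MO over uninjected in replicate 2, and 0.40 for the reverse. Within a number it was 0.34 in replicate 1 and 0.68 in replicate 2. The number of calls between Otx1 MO and uninjected masses depended on single libraries: against 272 with all libraries, 191 were called without replicate 1 of Otx1 MO (114 of them shared with the 272), 12 without replicate 2 of Otx1 MO (all 12 shared), 2534 without replicate 1 of uninjected masses (271 shared) and 112 without replicate 2 of uninjected masses (89 shared).

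**Figure D5:**
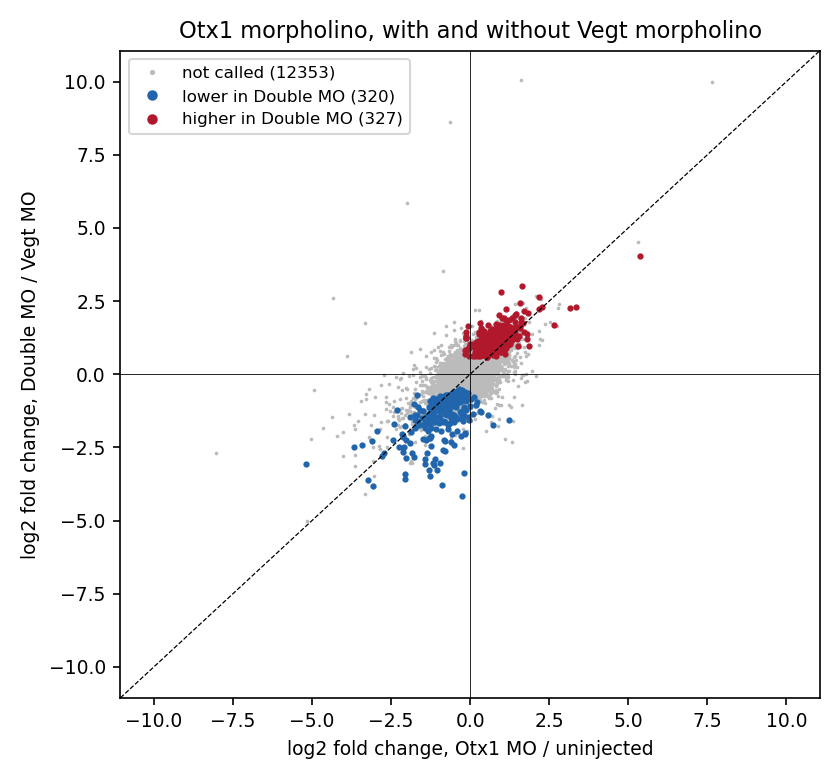
The log2 fold change of Double MO over Vegt MO is plotted against that of Otx1 MO over uninjected masses for features with an average log2 CPM of at least 1; the dashed line marks equal change. Features called lower (blue) or higher (red) in Double MO mostly share their direction with the other axis, and some blue points lie far below the dashed line near 0 on the horizontal axis.

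Whether the effect of the Otx1 morpholino differed between masses with and without the Vegt morpholino was tested as an interaction. edgeR called 0 of 16269 features. The smallest adjusted p was 0.37, and for 689 of the 16269 features the unadjusted p was under 0.05. This is a smaller share than the 0.05 that such a threshold would pass with no interaction in any feature. DESeq2 called 23, limma 0, and the edgeR fit without replicate 1 or 2 of uninjected masses 102 or 2. The interaction is less precise than either effect: over features with an average log2 CPM of at least 1 its median SE was 0.28 on the log2 scale, against 0.20 for Double MO over Vegt MO. Of the 23 DESeq2 calls 19 were negative. The greatest interaction among the named gene models was that of Xetrov90012565m.g, at -3.88 (SE 0.57, edgeR adjusted p = 0.37). For Xetrov90024523m.g it was -0.77 (SE 0.64), for Xetrov90026651m.g -1.31 (SE 0.98) and for Xetrov90007942m.g 1.36 (SE 0.70), each with an edgeR adjusted p of 1.00.

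Set beside the effect of the Vegt morpholino alone, the features fell into classes with different levels. This comparison shares the Vegt MO libraries with that of Double MO, so a chance deviation of those libraries enters both with opposite signs, and no overlap is tested. The classes were formed from these 2 contrasts, so their levels in the masses are a description. Between Vegt MO and uninjected masses 174 features were higher (1.07%) and 254 lower (1.56%). Of the 332 features that fell in Double MO, 258 were not called there, 57 were higher in Vegt MO and 17 lower. Of the 336 that rose, 292 were not called, 42 were lower in Vegt MO and 2 higher.

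The 57 features that were raised in Vegt MO and lower in Double MO had their highest median in Vegt MO, as Xetrov90012565m.g did. Unlike that gene model, their median in Double MO was above that in uninjected masses. Their median level was 13.1 TPM in Double MO, against 42.1 TPM in Vegt MO. With the Otx1 morpholino alone it was 5.83 TPM, against 7.83 TPM in uninjected masses. The median log2 change of the class was -1.60 between Double MO and Vegt MO and -0.43 between Otx1 MO and uninjected masses. Of the 57, 6 were also called lower in Otx1 MO than in uninjected masses, where 0.947% of all tested features were. In that comparison 10 of the 57 had a positive fold change. Between Double MO and uninjected masses the median log2 change was 0.21, with 5 called higher and 2 lower, where 2.93% of all tested features were higher and 4.06% lower.

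Uninjected caps held these 57 features at a median of 50.8 TPM. The median there was 42.6 TPM for all 332 features that fell and 12.8 TPM for all features tested in the masses. Caps did not enter the choice of the class. With 500 ng of vegt RNA 18 of the 56 that were tested in caps fell and 7 rose, where 230 (1.41%) and 460 (2.81%) of 16360 features did so, and their median log2 fold change was -0.64.

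The 258 features that fell in Double MO and were not called in Vegt MO had medians of 40.2 TPM in Double MO, against 78.7 TPM in Vegt MO, and of 46.5 TPM in Otx1 MO, against 70.9 TPM in uninjected masses. Of these 81 were also called lower in Otx1 MO, where 0.947% of all tested features were. Their median in uninjected caps was 41.3 TPM. The 17 features lower at both steps had a median of 16.5 TPM in Double MO, against 39.1 TPM in Vegt MO, and a median of 44.6 TPM with the Otx1 morpholino alone, against 77.3 TPM in uninjected masses. Of the 17, 11 were also called lower in Otx1 MO than in uninjected masses, where 0.947% of all tested features were. With 500 ng of vegt RNA in caps 7 of the 17 rose and 1 fell, where 2.81% and 1.41% of 16360 features did so.

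The 42 features lower in Vegt MO and higher in Double MO had medians of 32.0 TPM in Double MO, against 12.4 TPM in Vegt MO, and of 48.4 TPM in Otx1 MO, against 33.5 TPM in uninjected masses. Between Double MO and uninjected masses the median log2 fold change of the class was -0.18, with 8 of the 42 called lower and 0 higher, where 4.06% of all tested features were lower and 2.93% higher. Of the 42 features 13 were lncRNA models, out of 24 among the 336 that rose (7.14%). Among all tested features 14.3% were lncRNA models. Their share among all features lower in Vegt MO was not counted, so it is not shown to be particular to the 42. In the other 292 features that rose without a call in Vegt MO, medians were 33.0 TPM in Double MO, against 15.0 TPM in Vegt MO, and with the Otx1 morpholino alone 32.9 TPM, against 17.9 TPM in uninjected masses.

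Adding otx1 RNA to caps is the opposite manipulation of Otx1, in another tissue. The caps also received vegt RNA, whereas the Double MO and Vegt MO masses received the Vegt morpholino, so the backgrounds differ in Vegt too. Caps with 100 ng of otx1 RNA beside 100 ng of vegt RNA differed from caps with vegt RNA alone in 48 features that were higher (0.293%) and 44 that were lower (0.269%), with the block. Of the 323 features that fell in Double MO and were tested in caps, 4 rose and 2 fell with 100 ng of otx1 RNA. Of the 327 that rose in Double MO, 1 rose and 0 fell. Their median log2 fold changes were 0.04 and -0.02, against 0.01 over all features tested in both tables. Of the 39 features raised by otx1 RNA and tested in the masses, 27 were negative between Double MO and Vegt MO, with a median of -0.70. So were 25 of the 40 that otx1 RNA lowered, with a median of -0.23, and 50.2% of all tested features. Of the 39, 4 were called lower and 1 higher, and of the 40, 2 lower and 0 higher. Among all tested features 2.04% were called lower and 2.07% higher. The cap counts moved between 8 and 433 with single libraries: 14 or 8 without replicate 1 or 2 of the caps with vegt RNA alone, 51 or 433 without replicate 1 or 2 of those with 100 ng of otx1 RNA.

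At 25 and 50 ng of otx1 RNA the shifts were small and of opposite sign in the 2 sets, and shifts of the same signs were found with 500 ng of vegt RNA and no otx1 RNA. The features that fell in Double MO had medians of 0.10 and 0.10, with 225 and 228 of 323 positive (69.7% and 70.6%). Those that rose had medians of -0.06 and -0.07, with 106 and 112 of 327 positive (32.4% and 34.3%). Over all features 51.0% and 51.7% were positive. At 100 ng 57.3% of the features that fell and 45.6% of those that rose were positive, against 52.4% of all. With 500 ng of vegt RNA the medians were 0.07 and -0.07, with 58.8% and 35.5% positive, against 48.1% of all. The difference between these manipulations was not tested, so the pattern is not shown to be particular to otx1 RNA. The comparisons at 25, 50 and 100 ng of otx1 RNA share the caps with 100 ng of vegt RNA alone, so their signs are not independent of each other. That at 500 ng of vegt RNA was made against uninjected caps and does not use those libraries. With 500 ng of vegt RNA the 3956 features with a lower 8-cell level had a median of -0.04, with 42.3% positive. Of the 2755 features with a higher 8-cell level 50.3% were positive there. The classes of 8-cell level were set against the same uninjected caps that this comparison uses. A chance deviation of those caps enters both, so part of these values can come from the choice. The comparisons of otx1 RNA do not use those caps. At 25 and 50 ng of otx1 RNA the 3956 had medians of 0.02 at both amounts, with 54.9% and 53.6% positive. Of the 2755, 46.9% and 49.4% were positive at these 25 and 50 ng. Single calls were few, with 1 and 15 features higher (0.00611% and 0.0917%) and 6 and 4 lower (0.0367% and 0.0244%) of 16360. Of the features that fell in Double MO 0 and 2 were among those higher and 0 and 0 among those lower. Of the features that rose 0 and 0 were among those higher and 1 and 0 among those lower.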

How the data were processed

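Per the labels' protocols, cDNA was synthesised by Smart-seq2 and tagmented for sequencing. Bowtie2 2.2.7 and RSEM 1.2.12 are named in the submitters' processing notes. The build and annotation are not given in the sources used. Per experiment, the authors deposited 1 table of expected counts (estimated read counts that need not be whole) and 1 of TPM. Expected counts were rounded and tested with edgeR 4.0.16 (R 4.3.3): quasi-likelihood test, robust dispersion, TMM scaling, filterByExpr with a minimum count of 10, and 1 model of group means plus replicate number over all 8 mass libraries or all 16 cap libraries. A feature was called where its p, adjusted over all tested features by Benjamini-Hochberg, was under 0.05; the SE is the fold change divided by the root of its F statistic. Log2 ratios within a replicate number were taken on log2 CPM with a small count added to each library. Tables were tested separately. Scripts were tested on simulated data.

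The design text calls the replicates biological duplicates. Groups share replicate numbers, and deviations of same-numbered mass libraries from their group means correlated with r between 0.71 and 0.81 over 6 pairs of groups (13000 features with an average log2 CPM of at least 1). The first principal component, with 56.4% of the variance, parted number 1 from number 2, so the numbers were taken to pair the libraries; what they stand for is not given in the labels. Replicates of a group differed by more than counting noise in every group.

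The comparison, the lists and the block were chosen with earlier results of these data known. Named gene models were the 2 per direction with the greatest fold change among called models with an average log2 CPM of at least 1, separate TPM values and 1 direction in both replicates; the rule for the interaction named none. Alternatives were the fit without the block, RLE size factors, no filter, DESeq2 1.42.0, limma 3.58.1 on log2(TPM + 1) and log2(TPM + 0.1), only the groups compared, and leaving out each library. Lists of markers by gene symbol could not be read. Peak lists were not analysed here, since they cannot be tied to the gene models without an annotation of their build.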

Additional observations from a re-analysis of the deposited data

How the results depend on the processing

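Counts of calls depended on the settings. With the replicate block, edgeR called 336 features higher and 332 lower between Double MO and Vegt MO, 0 in the interaction, 272 between Otx1 MO and uninjected masses and 92 for 100 ng of otx1 RNA in caps. Without the replicate block these became 0 higher, 0 lower, 0, 0 and 0. RLE size factors gave 300, 322, 0, 271 and 97. Without the filter on low counts they were 604, 550, 9, 794 and 164, and with DESeq2 722, 644, 23, 1110 and 276. With limma on log2(TPM + 1) they were 35, 99, 0, 49 and 103, and on log2(TPM + 0.1) 25, 74, 0, 41 and 76. With only the groups compared in the fit they were 925 and 681 between Double MO and Vegt MO, 127 between Otx1 MO and uninjected masses and 174 in caps; the interaction needs all 4 groups. Leaving out 1 library at a time gave 2 to 37 higher, 36 to 81 lower, 0 to 102 in the interaction, 12 to 2534 between Otx1 MO and uninjected masses and 8 to 433 in caps, where the lone library left in a group was assumed to vary like the other groups. Under limma the share of higher calls was 26.1% and 25.3%, against 50.3%. The causes were not tested. The fold changes of the 4 named gene models kept their direction under all 11 alternatives, which their choice by size and by 1 direction in both replicates makes likely. Xetrov90012565m.g and Xetrov90024523m.g stayed past the threshold in 10 of the 11, Xetrov90026651m.g in 8 and Xetrov90007942m.g in 4. With 2 libraries a group, p-values rest on a spread shared by all groups of a table, and depth was between 10906279 and 16379814 expected counts per mass library.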
